A study of Mus musculus with 12 samples.

Results

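Plasma cells of the mouse bone marrow were profiled on 12 arrays, 6 per genotype, and the arrays whose titles carry the replicate numbers 4 to 6 are described here against those numbered 1 to 3. The 6 arrays numbered 4 to 6 (3 wild type and 3 Zbtb32-/-) are 6 of the 12 in all. They were chosen by replicate number after earlier results of the same arrays had shown that the numbers separate them, so each difference between the replicate sets is a description and supports nothing by itself. The labels do not call either set a batch, and they give no date, day or scan that would tell the sets apart.

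The donors were CD45.2 mice, wild type (Zbtb32 +/+) or Zbtb32-/-, already immune to NP-CGG (the small molecule NP attached to chicken gamma globulin). Their spleen cells were moved into CD45.1 recipients and challenged with the same antigen, and donor plasma cells that bound NP were sorted from the marrow on day 7. The gate took cells positive for CD138, CD45.2 and NP and negative for B220, Ly6g, CD11b and CD45.1. Both genotypes and both replicate sets share this transfer, challenge, time and gate. Zbtb32-/- means loss of a zinc finger repressor, and the source of the allele, the age of the mice and the number of mice per array are not given in the sources used here. RNA was amplified with a WT Pico kit, made for small inputs.

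A plasma cell is a B cell turned over to antibody secretion. The transcription factors Blimp-1 (Prdm1), IRF4 and XBP1 install a large endoplasmic reticulum (ER), in which chaperones fold the chains, glycosyltransferases add sugars and vesicles carry the product to the Golgi. Immediate early genes such as Fos and Jun stand apart from this program, because they are switched on within minutes of a signal. Neutrophils are among the most common nucleated cells of the marrow, and CD11b and Ly6g in the gate serve to remove them.

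Array medians lay between 6.28 and 6.43 on the deposited log2 RMA scale. Pairs of arrays correlated at 0.914 to 0.984 across all probe sets, with a median of 0.961 within a replicate set and 0.944 between sets. The leading principal component, taken over the genes tested, held 32.4% of the variance. On it the arrays numbered 1 to 3 lay between -23.76 and -12.34, and those numbered 4 to 6 between -4.04 and 39.17. Zbtb32-/- arrays 4 and 5, at -4.04 and -0.14, were the nearest of their set to the other one. Array 4 of that genotype correlated as well with the opposite set (mean 0.952) as with its own (0.951). Zbtb32 was measured at 6.39 to 6.88 on the wild-type arrays and at 6.47 to 6.73 on the arrays labelled Zbtb32-/-. The part of the gene that was deleted is not given, so these levels do not check the labels. Xist, the RNA of the inactive X chromosome, was at 8.87 on wild-type array 2 and at 11.48 and 11.22 on Zbtb32-/- arrays 2 and 3, against 5.25 to 5.93 on the other 9 arrays. All 3 arrays with high Xist are thus numbered 1 to 3.

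Of 14993 genes tested, 307 were listed as higher in replicates 4 to 6 (2.05% of genes) and 670 as lower (4.47%). Listed here means a Benjamini-Hochberg adjusted p under 0.05 in limma with genotype as a term, used only as a line for counting. At that line Mir670hg lay just inside with a difference of 0.36, and Sparc, a matrix protein, just outside with 1.71. The 6 values of one set lay wholly above the 6 of the other for 155 genes higher in 4 to 6 (1.03%) and 429 genes lower (2.86%). Over all genes the median difference, 4 to 6 minus 1 to 3, was -0.06 on the log2 scale, and 38.8% of genes had a positive one. The median difference ran from 0.04 in the decile of genes with the lowest levels to -0.18 in the decile with the highest, where 180 genes were listed lower and 26 higher.

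**Figure D1:**
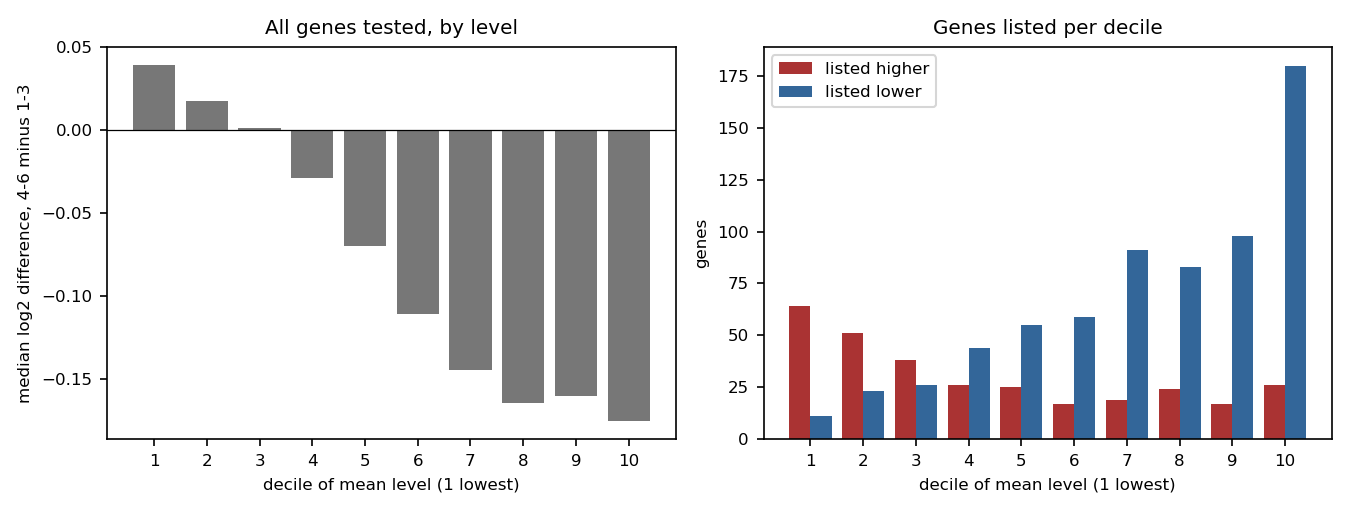
Median log2 difference (replicates 4 to 6 minus 1 to 3) in each decile of the 14993 tested genes ordered by mean level (left), and the number of genes listed higher and lower in each decile (right). The median is 0.04 in the lowest decile and -0.18 in the highest, and 11 and 180 genes are listed lower there.

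The number of genes listed depended on single arrays. It was 240 without wild-type array 1, 379 without wild-type array 3, 395 without wild-type array 4 and 434 without wild-type array 5. Among Zbtb32-/- arrays it was 364 without array 1, 541 without array 2, 315 without array 3 and 365 without array 6. Leaving out the 3 arrays with high Xist left 11 genes listed, 10 of them among the 977. Centring each array on its median gave 269 genes higher and 1015 lower, so the split between directions depends on the scaling. Renewed quantile normalization gave 242 higher and 508 lower, 634 of them among the 977. With the mean of the neutrophil genes as a covariate 13 genes were listed, 12 of them among the 977.

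Genes of neutrophils and other myeloid cells led the genes that were higher in replicates 4 to 6. Csf3r, the receptor for the neutrophil growth factor G-CSF, was at 8.13, 8.75 and 9.51 on wild-type arrays 1 to 3 and at 10.97, 11.66 and 10.34 on wild-type arrays 4 to 6. On Zbtb32-/- arrays it was at 7.88, 9.98 and 8.90 in the lower-numbered set and at 10.04, 10.51 and 11.93 in the higher-numbered one. Every array of replicates 4 to 6 lay above every array of 1 to 3, by a narrow margin between Zbtb32-/- arrays 2 and 4, and the difference was 2.05 ± 0.40 (SE, n = 6 and 6).

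Mmp8, the neutrophil collagenase, had a lowest, median and highest value of 5.79, 7.35 and 8.75 in replicates 1 to 3 and of 8.61, 9.94 and 11.40 in 4 to 6. Its sets overlapped, and its difference of 2.58 ± 0.53 was 3.07 in wild type and 2.08 in Zbtb32-/-. Tyrobp, a signaling adaptor of myeloid and NK cell receptors, ran from 7.91 to 9.71 in replicates 1 to 3 and from 9.89 to 11.56 in 4 to 6, without overlap. The chemokine gene Ccl6 showed the same separation, from 7.16 to 8.97 against 9.17 to 11.45. Pla2g7, which encodes an enzyme that breaks down platelet-activating factor, also did not overlap, with 5.47 to 7.19 against 7.88 to 9.06 and a difference of 2.10 ± 0.30. The C-type lectin gene Clec4d separated by less, with 7.90 as the highest value of 1 to 3 and 7.98 as the lowest of 4 to 6. Overlap was seen for Ccr1 (difference 2.54), Il1f9 (2.31), Emb (2.22), Lilrb4a (2.13), Lilr4b (2.05) and Retnlg (2.04), each of them lowest on wild-type array 1 or 2. Of these and the genes above, Mmp8 was not listed without wild-type array 1, and Ccr1, Emb, Lilrb4a and Clec4d not without any 1 of 6 arrays (wild type 1, 4 and 5 and Zbtb32-/- 1, 3 and 6). Retnlg was not listed without any 1 of 5 of those 6, and Lilr4b not without any 1 of 9 arrays.

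Of the 27 neutrophil genes tested, all 27 were higher in replicates 4 to 6, 11 were listed, and the median difference was 1.24 against -0.06 over all genes. The 11, and the counts for other cell types below, stand beside 2.05% of all genes listed higher. Without the 3 arrays with high Xist the median was 1.01 and 0 genes were listed. The 11 include the calprotectin genes S100a8 and S100a9 (1.24 and 1.05), the iron-binding lipocalin gene Lcn2 (1.49), the gelatinase gene Mmp9 (1.57) and the chemokine receptor gene Cxcr2 (1.95). The mean over 28 measured neutrophil genes was 8.50, 7.51 and 9.14 on wild-type arrays 1 to 3 and 9.94, 9.89 and 9.32 on arrays 4 to 6. On Zbtb32-/- arrays it was 8.58, 9.51 and 8.15 and then 8.92, 9.61 and 11.22. Zbtb32-/- array 6 was thus the highest of all and wild-type array 2 the lowest, and the sets overlapped, with Zbtb32-/- array 2 and wild-type array 3 above the lowest array of replicates 4 to 6. Itgam, which encodes the gated marker CD11b, was at 6.49 to 8.69 in replicates 1 to 3 and at 8.44 to 11.10 in 4 to 6. Ly6g, the other gated neutrophil marker, was at 5.89 to 7.84 and at 7.30 to 10.29, and was not listed. In bulk RNA more cells of a type and more RNA per cell cannot be told apart.

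Monocyte and macrophage genes followed. Their median difference was 0.81 over 32 genes tested, with 31 higher and 8 listed, among them the lysozyme gene Lyz2 (1.64), the pore-forming protein gene Mpeg1 (1.66) and the chemokine receptor genes Ccr2 (0.75) and Cx3cr1 (0.80). Their median was 1.28 in wild type and 0.35 in Zbtb32-/-, and 0.90 with 0 listed without the arrays with high Xist. The mean of these genes was 7.80 to 8.81 on wild-type arrays 4 to 6, above 6.69 to 7.26 on wild-type arrays 1 to 3. On Zbtb32-/- arrays 4 and 5 it was 7.10 and 7.46, within the 7.01 to 7.52 of Zbtb32-/- arrays 1 to 3, and only array 6 was higher, at 8.25. Slc2a3, the glucose transporter GLUT3 that myeloid cells use, was the sole glycolysis gene listed, with a difference of 1.69.

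**Figure D2:**
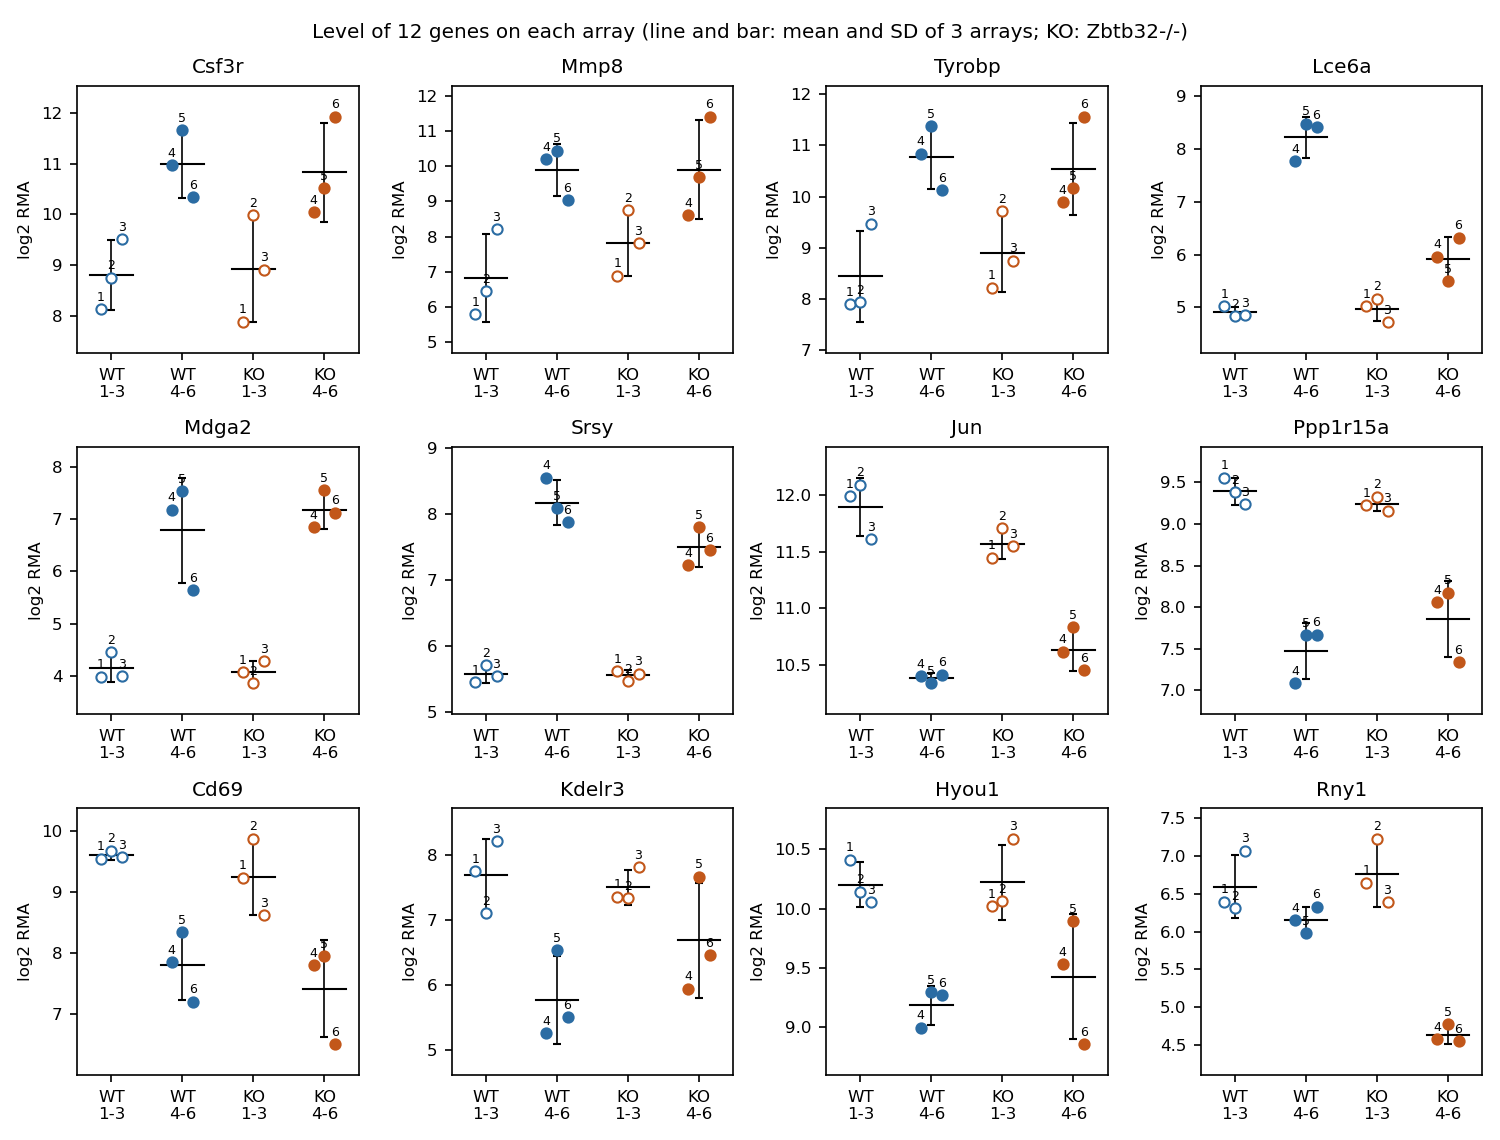
Level (log2 RMA) of 12 genes on each array, with open circles for replicates 1 to 3, filled circles for 4 to 6, blue for wild type and orange for Zbtb32-/- (KO), the replicate number at each point, and the mean and SD of 3 arrays. Mdga2, Srsy, Jun and Ppp1r15a separate the sets in both genotypes, while Mmp8, Kdelr3 and Rny1 overlap between them.

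Other marrow cells were represented by fewer genes. Of 20 stromal and endothelial genes tested 16 were higher and 3 listed, the endothelial genes Cdh5 (1.05) and Emcn (0.74) and the lipoprotein gene Apoe (1.05), with a list median of 0.55. The mean of these genes was highest on wild-type array 5 (7.70) and Zbtb32-/- array 6 (7.52). Dntt, the terminal transferase of early lymphocytes, was at 4.89 to 5.75 in replicates 1 to 3 and at 5.94 to 7.65 in 4 to 6, highest on array 4 of both genotypes. It was the only one of 16 pre-B and pro-B genes listed. Of 12 genes of stem and progenitor cells 9 were higher and 2 listed, Cd34 (0.59) and Gata2 (0.41), and the list median of 0.18 was -0.03 with the neutrophil mean as a covariate. B cell genes had a median of 0.40 in wild type and -0.06 in Zbtb32-/- over 29 genes, with Cr2 alone listed (0.77). Mcpt8, a basophil protease, was at 9.66 on wild-type array 4 and at 5.37 to 5.97 on the other 11 arrays. All 6 basophil and mast cell genes tested were higher and 1 listed, with a list median of 0.63. The mean over the 13 measured was 5.19 to 5.35 in replicates 1 to 3 and 5.36 to 6.16 in 4 to 6. Of 13 dendritic cell genes tested 8 were higher, 5 lower and 2 listed higher, with a median of 0.10. Their list mean was 6.88 to 6.98 against 7.00 to 7.35. No T and NK cell, erythroid or megakaryocyte gene was listed, of 17, 24 and 10 tested, with 3, 7 and 3 at an unadjusted p under 0.05 by limma.

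Interferon-stimulated genes split. Of 26 tested, Rtp4 (1.34), Ifitm3 (1.11) and Oas2 (0.74) were listed higher and Isg20 (-0.49) lower, with a list median of 0.14. These counts stand beside 2.05% of all genes listed higher and 4.47% lower. Rtp4 was at 8.57, 8.78 and 8.37 on wild-type arrays 4 to 6 against 6.71, 5.86 and 7.27 on arrays 1 to 3, a difference of 1.96, and its Zbtb32-/- difference was 0.72. With the neutrophil mean as a covariate the list median was -0.04, and 0 genes of the list were listed.

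The largest difference of any listed gene belonged to Mdga2, a neuronal adhesion protein. It was at 3.98, 4.45 and 3.99 on wild-type arrays 1 to 3 and at 7.18, 7.53 and 5.64 on arrays 4 to 6. Zbtb32-/- arrays gave 4.07, 3.86 and 4.28 and then 6.84, 7.55 and 7.12. The difference was 2.87 ± 0.27, with 2.64 in wild type and 3.10 in Zbtb32-/-, and neither genotype overlapped. In replicates 1 to 3 Mdga2 lay below the filter on mean level (5.49), at the level of the olfactory receptors, so the size of its difference is set against a background value. The same holds for 54 of the 307 genes listed higher, whose mean in replicates 1 to 3 was at or below the filter, among them Lce6a, Dntt, Emcn and Ccr2. Of the 670 listed lower, 6 had such a mean in replicates 4 to 6, Rny1 among them. Srsy, a secreted serine-rich protein encoded on chromosome Y, was at 5.45 to 5.72 in replicates 1 to 3 and at 7.23 to 8.55 in 4 to 6, a difference of 2.27 ± 0.16. It was as low on the 3 arrays numbered 1 to 3 with low Xist (5.45 to 5.62) as on the 3 with high Xist. Lce6a, a late cornified envelope protein of skin, was at 4.72 to 5.16 in replicates 1 to 3. It was at 7.78, 8.49 and 8.41 on wild-type arrays 4 to 6 and at 5.96, 5.49 and 6.32 on the Zbtb32-/- arrays of that set.

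Sensory receptor genes, most of them below the filter, were higher almost throughout. Of 1027 olfactory receptor genes measured, 974 were higher in replicates 4 to 6, with a median difference of 0.27. Of the 186 that passed the filter on mean level, 58 were listed higher and 0 lower, and 31 did not overlap between the sets. Over all genes tested 2.05% were listed higher and 1.03% were higher without overlap. Passing that filter is easier for a gene that is high in 1 set, so the counts of receptors describe the 186 only. The median level of the olfactory receptors was 4.32 to 4.56 on arrays 1 to 3 and 4.66 to 4.89 on arrays 4 to 6, without overlap. Vomeronasal receptors, the pheromone receptors of the nose, were higher in 157 of 167. Among genes at or below the filter the sensory receptors had a median difference of 0.25 over 1001 genes and the other genes 0.06 over 3944. The median for all olfactory receptors was 0.31 in wild type and 0.22 in Zbtb32-/-, with 899 of 1027 higher in both.

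Single receptors were named after their values were seen. Olfr898 was at 4.55 to 5.24 in replicates 1 to 3 and at 5.77 to 7.80 in 4 to 6, and Olfr485 at 4.98 to 5.98 against 6.33 to 7.15. Olfr494 was at 4.92 to 5.44 against 5.66 to 6.54, and it remained listed with the neutrophil mean as a covariate (1.31) and without the 3 arrays with high Xist (1.16). Over the whole array, 25.2% of the 1621 probe sets assigned to several genes were listed higher, against 3.55% of the 21789 assigned to 1 gene and 6.50% of the 12146 unnamed here. Probe sets of several genes cannot say which gene was measured, and none is named.

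**Figure D3:**
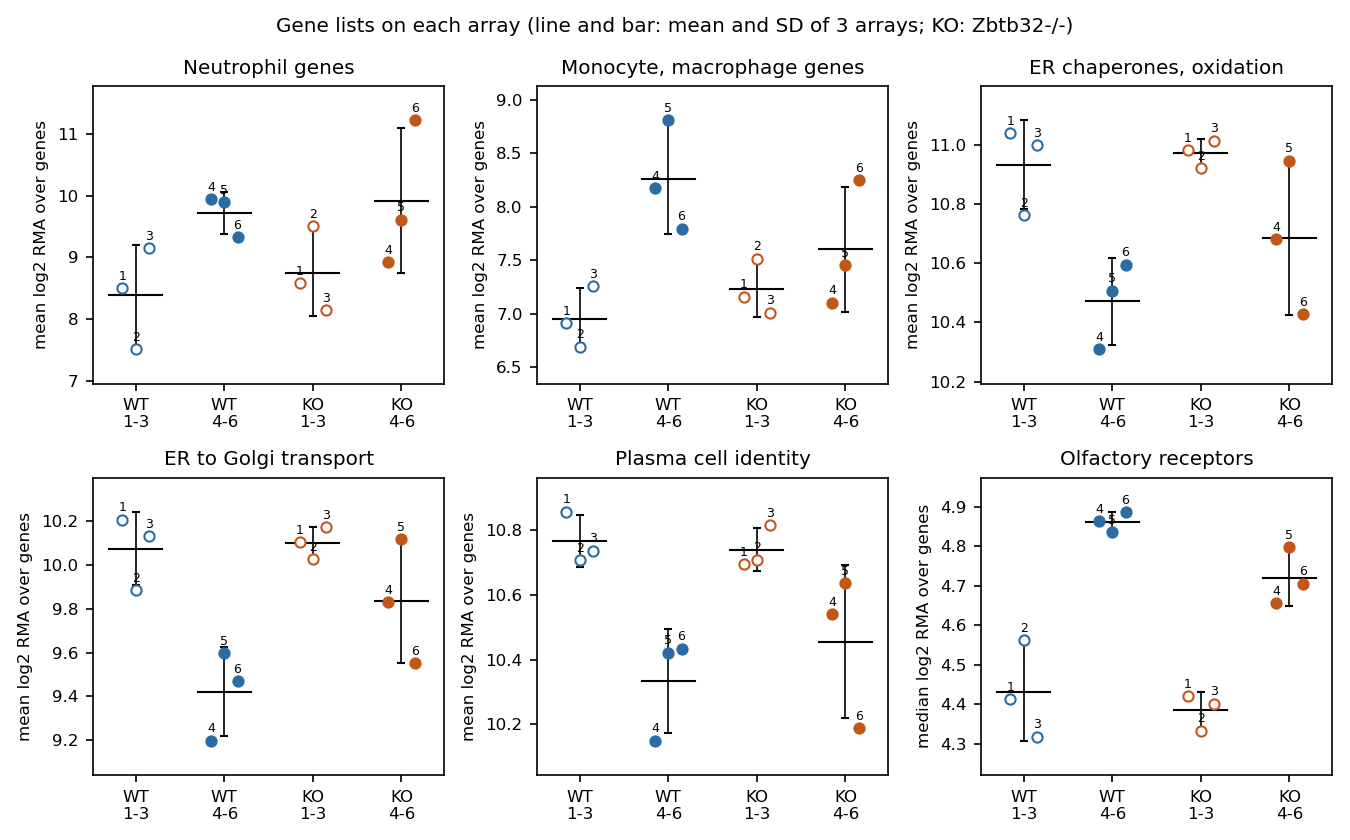
Mean level of 5 gene lists and median level of the olfactory receptors on each array (log2 RMA), with symbols as in the plot of single genes. Olfactory receptors separate the sets without overlap, neutrophil genes overlap, and Zbtb32-/- array 5 (10.95 for ER chaperones) sits among replicates 1 to 3 in the ER lists.

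Immediate early genes were lower in replicates 4 to 6. Jun, a subunit of the AP-1 transcription factor, was at 11.99, 12.09 and 11.61 on wild-type arrays 1 to 3 and at 10.40, 10.34 and 10.41 on arrays 4 to 6. Zbtb32-/- arrays gave 11.45, 11.71 and 11.55 and then 10.62, 10.84 and 10.45. No value overlapped, and the difference was -1.22 ± 0.12, with -1.51 in wild type and -0.93 in Zbtb32-/-. Fosb and Fos, its partners, ran from 10.08 to 11.57 against 8.65 to 10.05 and from 10.24 to 10.68 against 8.98 to 9.67. Fosb came close to overlap through Zbtb32-/- arrays 3 and 5. Egr1, a zinc finger factor induced by growth signals, was at 7.76 to 8.69 against 6.42 to 7.70.

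Of the 24 immediate early genes tested 8 were listed lower and 0 higher, 6 of them without overlap, and the list median was -0.30. Over all genes tested 4.47% were listed lower and 2.86% were lower without overlap. Without the arrays with high Xist the median was -0.35 and 1 gene, Jun, was listed. The other listed members are Jund (-0.42), Ier2 (-0.73), Ier5 (-0.62) and Klf2 (-0.57). Ppp1r15a (GADD34), which turns protein synthesis back on after stress, was at 9.16 to 9.56 in replicates 1 to 3 and at 7.09 to 8.17 in 4 to 6. Its difference was -1.65 ± 0.18, and no other of 19 genes of the integrated stress response was listed except Slc3a2 (-0.68). Cd69, an early activation antigen of lymphocytes, showed the largest difference downward under the naming rule, with 8.62 to 9.87 against 6.51 to 8.34. Its difference of -1.81 ± 0.28 was -1.80 in wild type and -1.82 in Zbtb32-/-.

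The small GTPase genes Rhob and Gem were lower by the same pattern. Rhob was at 10.17 to 10.81 against 8.86 to 9.78, and Gem at 8.01 to 9.05 against 6.47 to 7.65. The inhibitory receptor gene Ctla4 was at 7.68 to 9.88 against 6.77 to 7.68, its sets meeting at wild-type arrays 3 and 6, and it was not listed without any 1 of 6 arrays (wild type 1, 4 and 5 and Zbtb32-/- 1, 3 and 6). Jun and Ppp1r15a remained listed with the neutrophil mean as a covariate (-1.08 and -1.38) and without the arrays with high Xist (-1.18 and -1.71). With that covariate the median of the immediate early list was -0.53, farther from 0 than without it.

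Genes of the ER and of secretion were lower as well, by smaller amounts. Their promoters are shown for 3 listed genes because a known element of ER genes lies in them. The ER stress response element, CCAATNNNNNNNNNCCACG, was searched on both strands of RefSeq promoter windows (GRCm38.p6, 250 bases before to 50 after each start). Of 87 genes with a window in the 4 ER lists 10 held it, against 37 of 27025 genes in all and 39 of 32851 windows (0.119%). Among the listed ER genes 3 of 30 with a window held it (10%), beside 11.5% of the 87. The cAMP response element (TGACGTCA) and the CArG box were searched in the same windows, and each was in 0 of 6 listed immediate early genes with a window and in 2 of 20 of that whole list. Over all genes tested 3.16% and 1.61% held them. Capitals mark the ends of the element, which Derl3 carries on the opposite strand.
Hspa5, chr2:34772005-34772063, plus strand: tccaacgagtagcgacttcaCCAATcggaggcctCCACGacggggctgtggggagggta
Derl3, chr10:75893222-75893280, plus strand: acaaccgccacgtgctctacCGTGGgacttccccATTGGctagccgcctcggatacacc
Syvn1, chr19:6046512-6046570, plus strand: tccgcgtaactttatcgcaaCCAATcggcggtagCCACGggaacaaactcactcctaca
The element ends 47, 138 and 26 bases before the start of Hspa5, Derl3 and Syvn1.

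Hspa5 (BiP), the main ER chaperone, was at 12.42 to 12.69 in replicates 1 to 3 and at 12.02 to 12.45 in 4 to 6. Its difference was -0.36 ± 0.07, and the sets overlapped through Zbtb32-/- array 5. Derl3, which takes part in moving misfolded proteins out of the ER, was at 10.74 to 11.24 against 9.67 to 10.47 without overlap. Syvn1, the ubiquitin ligase of the same pathway, was at 11.19 to 11.57 against 10.49 to 11.11. Hyou1, a large ER chaperone, had the largest difference of its list, -0.91 ± 0.17, with 10.02 to 10.59 against 8.86 to 9.89. Txndc11, a thioredoxin-like protein, was at 11.16 to 11.48 against 9.77 to 11.06.

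All 28 genes for ER chaperones and disulfide oxidation had a negative difference, with a median of -0.36 and 8 listed. All 29 for translocation into the ER and N-glycosylation did too, with a median of -0.34 and 10 listed, among them the oligosaccharyltransferase genes Rpn2 (-0.58), Ddost (-0.56) and Ost4 (-0.45) and the signal recognition receptor gene Srprb (-0.57). All 29 for transport from the ER to the Golgi did, with a median of -0.42 and 8 listed. Of these Kdelr3, a receptor that returns ER proteins, was lowest, at 7.76, 7.10 and 8.21 and then 5.25, 6.53 and 5.50 in wild type. In Zbtb32-/- it was at 7.36, 7.33 and 7.81 and then 5.94, 7.67 and 6.45, so that array 5 lay within the other set. Kdelr3 was not listed without any 1 of 7 arrays (wild type 1, 3, 4 and 6 and Zbtb32-/- 1, 3 and 6). Of 19 genes of ER-associated degradation 18 were lower and 6 listed, with a median of -0.35. The decile of genes with the highest levels, for comparison, had a median of -0.18 and 180 of 1500 genes listed lower, beside 4.47% of all genes. After renewed quantile normalization the 4 ER medians were -0.29, -0.26, -0.33 and -0.24. Without the arrays with high Xist the 4 medians were -0.45, -0.40, -0.54 and -0.48, and 0 genes of these lists were listed.

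Wild type showed the larger shift in every ER list. Its medians were -0.44, -0.51, -0.58 and -0.61 for chaperones, translocation, Golgi transport and degradation, and those of Zbtb32-/- were -0.28, -0.22, -0.26 and -0.20. Zbtb32-/- array 6 was the lowest of its genotype in all 4 lists, and array 5 lay near replicates 1 to 3. For the chaperones the means were 10.31, 10.51 and 10.59 on wild-type arrays 4 to 6 and 10.68, 10.95 and 10.43 on Zbtb32-/- arrays 4 to 6, against 10.76 to 11.04 in replicates 1 to 3. Neutrophil genes averaged 9.94, 9.89 and 9.32 on wild-type arrays 4 to 6 and 8.92, 9.61 and 11.22 on Zbtb32-/- arrays 4 to 6. Zbtb32-/- array 6 thus had the highest neutrophil mean and the lowest ER means of its genotype. On wild-type arrays 4 to 6 the chaperone mean also rose as the neutrophil mean fell. Some other arrays did not follow that order. Wild-type array 2 had the lowest neutrophil mean of all (7.51) and the lowest chaperone mean of replicates 1 to 3 (10.76). Zbtb32-/- array 5 was high in both (9.61 and 10.95). A link between the 2 was not tested. With the mean of the neutrophil genes as a covariate the 4 ER medians were -0.28, -0.24, -0.34 and -0.24, and 0 genes of the 4 lists were listed.

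**Figure D4:**
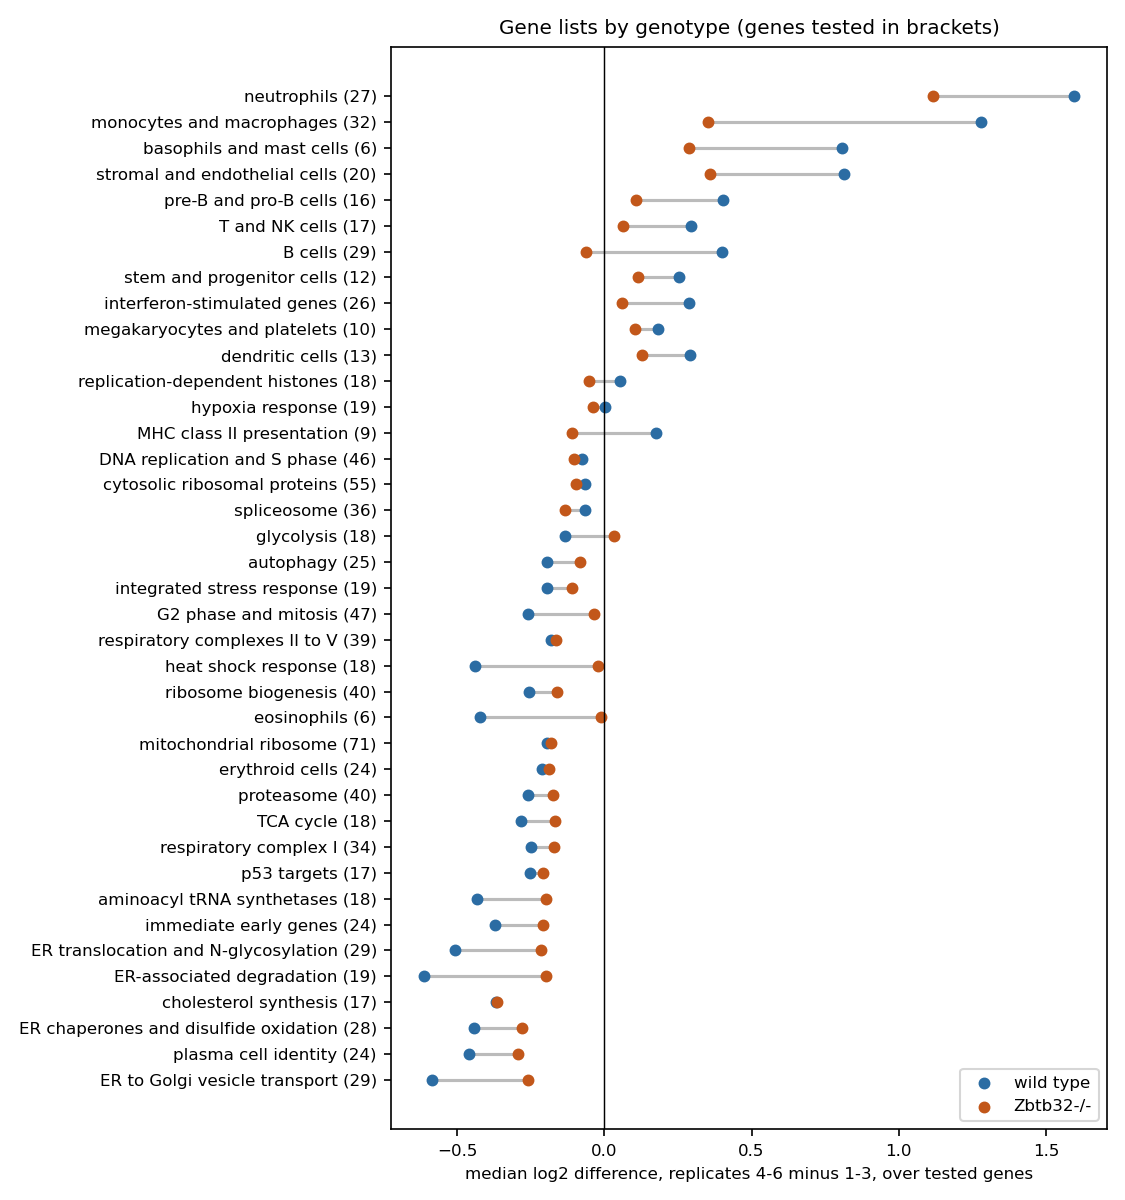
Median log2 difference between the replicate sets (4 to 6 minus 1 to 3) over the tested genes of 39 lists, in wild type (blue) and Zbtb32-/- (orange). Neutrophil genes stand at 1.60 and 1.12 and the ER lists between -0.61 and -0.20, with the wild-type value farther from 0 in each of the 4 ER lists.

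Plasma cell identity genes followed the ER lists, with which they share Derl3 and Txndc11. Of 24 tested 22 were lower and 8 listed, beside 4.47% of all genes listed lower. Their median of -0.38 was -0.18 with the neutrophil covariate, under which 0 of them were listed. Without the arrays with high Xist the median was -0.40. Prdm1 was at 9.46 to 10.09 in replicates 1 to 3 and at 8.51 to 9.64 in 4 to 6, a difference of -0.75 ± 0.18 in which the sets overlapped. The elongation factor partner gene Eaf2 was at 10.20 to 10.52 against 9.50 to 10.07 without overlap, and Xbp1 at 12.98 to 13.43 against 12.68 to 13.05. Sdc1 (CD138) had a difference of -0.42 and Irf4 of -0.42, and neither was listed. Jchain and Ighm differed little, by -0.06 and -0.03, with Ighm at 9.50 to 9.73 on all 12 arrays. Jchain was at 13.51 or above on every array, and Prdm1 was lowest on wild-type array 4 (8.51) and next on wild-type array 6 (8.74) and Zbtb32-/- array 6 (8.79).

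The counts of other lists stand beside 4.47% of all genes listed lower and 180 of 1500 in the decile with the highest levels. The proteasome had 6 of 40 genes listed lower and a median of -0.20, led by the regulatory subunit genes Psmd3 (-0.92) and Psmd5 (-0.83). Cholesterol synthesis had 2 of 17, Insig1 (-0.99) and Ebp (-0.73), with a median of -0.35 that was -0.37 in each genotype. The respiratory chain had 2 of 34 genes of complex I and 3 of 39 of the other complexes, with medians of -0.21 and -0.16 near the -0.18 of the decile with the highest levels. Autophagy had 3 of 25, Atg5 (-0.57), Sqstm1 (-0.56) and Atg13 (-0.50). With the neutrophil mean as a covariate 0 genes of the proteasome, cholesterol, respiratory chain and autophagy lists were listed. Cd74, the invariant chain of MHC class II, and Ctss, the protease that trims it, were both lower by 0.43 without overlap, while the class II list had a median of -0.03 that turned positive on renewed quantile normalization. Of 47 genes of mitosis, 46 of DNA replication, 18 replication-dependent histone genes and 36 of the spliceosome 0 were listed, with 5, 1, 1 and 6 at an unadjusted p under 0.05 by limma. Over all genes that count was 3880.

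Further genes with large negative differences belong to sugar transfer, RNA processing and other processes. Alg14, which takes part in adding a sugar to the lipid carrier of N-glycans, was at 7.59 to 8.35 against 5.97 to 7.47. Of 12 Alg genes, a group picked from the values, 5 were listed lower and 0 higher, beside 4.47% of all genes listed lower. Selenom, a selenoprotein of the ER named after its values were seen, was at 9.16 to 9.64 against 7.73 to 9.04. Lcmt2 (tRNA modification) and Mis18a (centromere loading) did not overlap, each with a difference of -1.25, whereas Vcpkmt (-1.21) and Zfp949 (-1.21) overlapped. Mis18a, Vcpkmt and Zfp949 were not listed without any 1 of 4, 10 and 8 arrays, Zbtb32-/- arrays 1, 3 and 6 and wild-type array 4 among them for each.

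Some short noncoding RNAs were lower and some higher. Rpph1, the RNA of ribonuclease P, which trims tRNA precursors, was at 13.12 to 13.55 in replicates 1 to 3 and at 10.66 to 12.60 in 4 to 6, a difference of -1.38 ± 0.24. Snord118, the U8 RNA that guides ribosomal RNA processing, was at 7.36 to 8.36 against 5.31 to 6.57, a difference of -1.91 ± 0.23. It was named after its values were seen, and it remained listed without the arrays with high Xist (-2.02). Rny1, a Y RNA, was at 6.65, 7.23 and 6.39 and then 4.58, 4.78 and 4.55 in Zbtb32-/-. In wild type it was at 6.40, 6.31 and 7.07 and then 6.16, 5.98 and 6.33, so that those sets met, and it was not listed without wild-type array 3 or Zbtb32-/- array 1, 3 or 6. All 7 tested genes for snRNA, Y RNA, RNase P RNA and RNase MRP RNA were lower and 3 listed, and of 48 small nucleolar and Cajal body RNAs 35 were lower and 3 listed. Of 130 microRNA genes 88 were higher, 7 listed higher and 0 lower. These counts stand beside 4.47% of all genes listed lower and 2.05% higher. The 3 of 7 lie above that share in a class of few genes, and 5.38% of the microRNA genes were listed higher.

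Whether the genotypes differ in these shifts is a question the choice of the sets did not use, and the interaction of genotype with replicate set tests it. In limma 0 of 14993 genes (0%) passed an adjusted p of 0.05, with 579 at an unadjusted p under 0.05. Lce6a came nearest, with a difference that was 2.37 ± 0.32 smaller in Zbtb32-/- (3.32 in wild type, 0.96 in Zbtb32-/-) and an adjusted p of 0.105 by limma. It passed when wild-type array 4 (adjusted p = 0.0269) or Zbtb32-/- array 6 (0.0422) was left out, and with array weights (0.0172), all by limma. Leaving out Zbtb32-/- array 1 instead passed the Y-linked gene Uty (3.82, adjusted p = 0.0170 by limma), which is low on the Zbtb32-/- arrays with high Xist. Rny1 differed by -1.68 ± 0.32 (limma adjusted p = 0.998). Of the 10 genes with the smallest p, Dctn4, a dynactin subunit, was at 8.79, 9.36 and 8.92 and then 7.27, 8.02 and 7.65 in wild type. In Zbtb32-/- it stayed at 8.28 to 8.89 over all 6 arrays, an interaction of 1.67 that did not pass. No gene of any list passed.

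Within wild type 95 genes were listed higher (0.634%) and 200 lower (1.33%). Within Zbtb32-/- there were 2 higher (0.0133%), Mdga2 and Srsy, and 1 lower (0.00667%), Rny1. These counts do not show that the genotypes differ, since the test of the difference called no gene. The wild-type count was 17 without wild-type array 1, 53 without wild-type array 3 and 61 without wild-type array 4. Without a Zbtb32-/- array, which changes only the spread, it was 93 (array 1), 89 (array 2), 103 (array 3) and 578 (array 6).

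The direction was the same in both genotypes for 70.8% of all genes tested, and the differences correlated across genes at 0.601, where genes of the same arrays are not independent. Of the 95 genes listed higher within wild type, 89 were also higher in Zbtb32-/-, with medians of 1.04 and 0.45. Of the 200 listed lower, 185 were also lower there, with medians of -0.92 and -0.38. Genes chosen in wild type tend to show a larger value there, so the pairs of medians are a description.

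**Figure D5:**
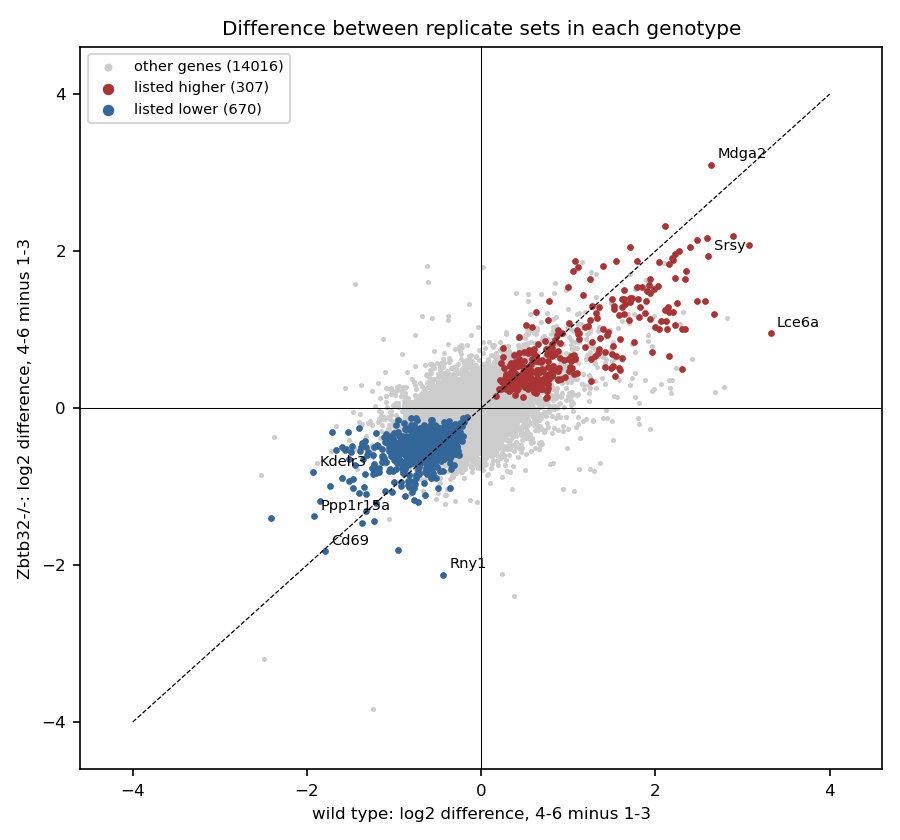
Log2 difference between the replicate sets in wild type (horizontal) and Zbtb32-/- (vertical) for 14993 genes, with the 307 genes listed higher in red and the 670 listed lower in blue and equality as a dashed line. Mdga2 and Cd69 lie near the line, and Lce6a (3.32 and 0.96) and Rny1 (-0.44 and -2.12) lie away from it.

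With the replicate set as a term, the comparison of Zbtb32-/- with wild type passed 0 genes (0%), with a smallest adjusted p of 0.760 by limma and 959 genes at an unadjusted p under 0.05. Within replicates 1 to 3 alone 0 passed, with 215 at an unadjusted p under 0.05. Within replicates 4 to 6 alone 2 passed in limma (0.0133%). Arv1, a sterol transport gene, was at 6.58, 6.51 and 6.40 in wild type and at 7.81, 7.87 and 7.85 in Zbtb32-/-, a difference of 1.35 (adjusted p = 0.0125 by limma). On arrays 1 to 3 it was at 7.04, 6.65 and 6.90 and at 6.97, 7.37 and 7.43, and the difference between these contrasts did not pass (interaction adjusted p = 0.998 by limma). Lce6a had a difference of -2.30 (adjusted p = 0.00371 by limma), from the values given above. It passed the filter on mean level only through arrays 4 to 6, chiefly those of wild type, and the group that let it be tested also carries this p and its interaction p, so neither is independent of the filter. The labels call the arrays biological replicates without tying them to mice, so these p-values measure the spread between samples that may share recipients or donors.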

How the data were processed

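The authors deposited log2 values made by RMA, with Affymetrix Expression Console named in the submitters' processing notes. RMA corrects background, sets the probe values of all arrays to 1 distribution and summarises the probes of a set. The summarised values still differed between arrays, with medians from 6.28 to 6.43. No count or depth exists for arrays, and the number of arrays limits the precision. Of 35556 probe sets 21789 were assigned to 1 gene by the platform annotation, and the set with the highest mean was kept for each of 19938 genes. Genes with a mean above 5.49, the 25th percentile of single-gene sets, were tested (14993). Differences are log2 values, 4 to 6 minus 1 to 3, fitted with limma 3.58.1 (R 4.3.3), trend in eBayes, with genotype and set as terms, or with 4 group means for differences within a genotype and the interaction. Adjusted p-values are Benjamini-Hochberg over all genes tested. The fits were tested on simulated data. Of 1163 entries of 40 gene lists 1045 were measured, 31 of them through a synonym.

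The replicate sets, the gene lists, the fits and the alternatives were chosen with earlier results of these data known. Genes named are the 15 with the largest difference in each direction among those listed, leaving out predicted genes, sensory receptors, small RNAs by symbol and variable segments; 4 per list by size, and 2 by mean level for lists of other cells; 5 per direction for the interaction; and a set of plasma cell, gate and sex genes. Genes outside this rule were named after their values were seen: Ccr2, Cdh5, Cr2, Cx3cr1, Ddost, Emcn, Ier2, Ier5, Isg20, Jund, Klf2, Lcn2, Mmp9, Ost4 and S100a8 as listed members of their lists, Mir670hg at the line, and Hspa5, Syvn1, Selenom, Snord118, Olfr898, Olfr494 and Olfr485. Igkc, Ighg1 and Ddx3y, which no single-gene probe set matched, were not analysed here. Alternatives covered scaling, filter, probe set choice, eBayes, array weights, a block, a covariate of markers, and leaving arrays out; those without the arrays with high Xist and with the neutrophil mean as a covariate were chosen after seeing the data.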

Additional observations from a re-analysis of the deposited data

Results flagged for a closer look

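In 16 of 274 groups of 6 arrays (the list means and the genes named, each within 1 replicate set) the highest or lowest array lay far from the other 5, by a ratio of gap to range above Dixon's critical value. Chance flags about 1 in 20 groups. Wild-type array 2 was low in the list means of aminoacyl tRNA synthetases (9.29, next 9.58), cholesterol synthesis (7.75, next 8.09), glycolysis (8.43, next 8.70) and the TCA cycle (9.04, next 9.37). The same array was low for Ddost (11.96, next 12.11), Rpn2 (11.03, next 11.32) and Psmd5 (7.64, next 8.26) and high for Mis18a (10.28, next 9.10). Wild-type array 4 was high for basophil and mast cell genes (6.16, next 5.66) and for Mcpt8 (9.66, next 5.97). Wild-type array 3 was high for eosinophil genes (7.97, next 7.22). Emcn was high on wild-type array 5 (6.93, next 5.96) and Cr2 on wild-type array 6 (7.44, next 6.73), where Mdga2 was low for its set (5.64, next 6.84). Ccr2 was high on Zbtb32-/- array 2 (5.76, next 5.20) and Xist slightly so on Zbtb32-/- array 6 (5.93, next 5.45).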

How the results depend on the processing

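Against 977 genes listed between the sets, the count was 1579 with no filter on low values, 19 with the markers of other cells as a covariate, 17 with a fold threshold of 1.2, 11 without the 3 arrays with high Xist and 13 with the neutrophil mean as a covariate. Leaving out 1 array gave 240 (wild type 1) to 1193 (Zbtb32-/- 5). The interaction passed 1 gene with array weights and 0 to 1 without 1 array. Within wild type (295) the count was 164 after renewed quantile normalization, 493 with no filter, 2092 with array weights, 5 with the other-cell covariate, 181 without wild-type arrays 2 and 6, 8 without the high-Xist arrays, 25 with the neutrophil covariate, 23 from wild-type arrays alone, and 17 to 578 without 1 array. Within Zbtb32-/- (3) it was 14 with no filter, 1 with the filter at the median level, 29 with array weights, 5 with the other-cell covariate, 0 without the high-Xist arrays (which leaves 1 Zbtb32-/- array in replicates 1 to 3, assumed to vary like the others), and 2 to 7 without 1 array. The causes were not tested, apart from the smaller number of arrays where some were left out. The genotype comparison passed 0 genes under each alternative run. Of 94 listed genes, those the naming rule gave and those added to it, 0 changed direction under any alternative run. Median centring moved the median difference of all genes from -0.06 to -0.11.

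The replicate numbers are shared by the genotypes, but same-numbered arrays did not deviate together (correlations from -0.22 to 0.17). These are deviations from means of 3 arrays, so they cannot tell whether same-numbered arrays share mice or handling. With the replicate number as a block 1255 genes differed between the sets, 290 within wild type and 3 within Zbtb32-/-, and the interaction passed 0. The correlation fitted within a block was -0.05. A value below 0 makes the SE of the difference between the sets smaller, so the higher count adds no support.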
